A study of Mus musculus with 10 samples.

Results

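MicroRNA genes were examined in maps of 4 histone H3 modifications from mouse retina. Every gene with the biotype miRNA in the mm10 gene table was taken, with 1 kb added on either side, which gave 1228 regions among the 49997 genes of the table. Of these, 825 lay inside a protein-coding gene, 121 inside a long non-coding RNA (lncRNA) gene and 282 between genes. The genes are 39 to 147 bp long with a median of 80 bp, so nearly all of each region is flanking sequence. Neighbours share chromatin, and genes within 10 kb of each other were joined into loci. The 1228 genes formed 943 loci, of which 843 held 1 gene.

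Retinas of C57BL/6 mice were taken at postnatal day 28 and their Glast+ cells gave the chromatin, with no treatment and no other cell population. Glast, encoded by Slc1a3, is a glutamate transporter of Müller glia, the glial cells that span the retina, and the cells were selected by it. H3K4me3, H3K4me1, H3K27me3 and H3K9me3 were each mapped by chromatin immunoprecipitation and sequencing in 2 experiments, Exp1 and Exp2, and each library is represented by a list of enriched intervals, called islands. The labels do not say which or how many animals each experiment drew on, nor how pure the cells were. Depth is unknown because the lists hold no read counts.

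A microRNA is cut from a hairpin in a longer primary transcript. That transcript starts at a promoter of its own or at the promoter of the gene that hosts the hairpin, which can lie many kilobases away, so marks at the hairpin and marks at the promoter are separate measurements. H3K4me3 marks active promoters, H3K4me1 enhancers and the flanks of promoters, H3K27me3 is placed by Polycomb complexes on silent developmental genes, and H3K9me3 marks heterochromatin. In the retina, the miR-183, miR-96 and miR-182 cluster is abundant in photoreceptors, miR-124 in neurons and miR-9 in progenitors and neurons. miR-204 is abundant in the pigment epithelium and ciliary body, and let-7 accumulates as progenitors mature.

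The retinal families are shown by their mature sequences from RefSeq (GRCm38.p6). The sequence table holds 1072 of the 1228 genes. The seed, bases 2 to 8 from the 5′ end and the main determinant of target choice, is in capitals. The sequences are given because members of 1 seed family, which share targets, are compared below.
miR-183-5p: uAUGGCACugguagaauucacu
miR-96-5p: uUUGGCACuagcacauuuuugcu
miR-182-5p: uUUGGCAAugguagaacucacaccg
miR-9-5p: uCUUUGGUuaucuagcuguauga
miR-204-5p: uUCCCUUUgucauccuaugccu
miR-211-5p: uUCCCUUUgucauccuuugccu
let-7a-5p: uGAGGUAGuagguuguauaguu
let-7c-5p: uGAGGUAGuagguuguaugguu
let-7e-5p: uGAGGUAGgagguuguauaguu
let-7g-5p: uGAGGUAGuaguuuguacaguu
let-7i-5p: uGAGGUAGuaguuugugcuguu
miR-98-5p: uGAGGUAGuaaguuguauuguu
The 3 miR-9 genes encode the same 5p strand from different hairpins, and miR-204 and miR-211 share a seed. All let-7 members listed, and miR-98, have the seed GAGGUAG.

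The hairpins of the 3 miR-9 genes, whose marks differed, are these.
Mir9-1: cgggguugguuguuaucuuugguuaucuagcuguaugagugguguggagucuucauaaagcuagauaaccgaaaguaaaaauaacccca
Mir9-2: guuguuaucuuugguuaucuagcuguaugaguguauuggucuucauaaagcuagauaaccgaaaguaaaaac
Mir9-3: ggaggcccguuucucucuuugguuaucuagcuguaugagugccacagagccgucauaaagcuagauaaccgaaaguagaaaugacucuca

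H3K4me3 and H3K4me1 lay at microRNA genes more often than at windows of the same width laid end to end over the genome, and H3K27me3 and H3K9me3 less often. A region counted as marked when an island overlapped it by at least 1 bp in both experiments. H3K4me3 was at 232 regions in Exp1 and 223 in Exp2, a mean share of 18.5% ± 0.518 (SD, n = 2). It was at 212 regions (17.3%) in both, against 2.92% of windows. H3K4me1 was at 441 and 340 regions (31.8% ± 5.82), and at 310 (25.2%) in both, against 6.86% of windows. H3K27me3 was at 155 and 176 regions (13.5% ± 1.21), and at 134 (10.9%) in both, against 17.9% of windows. H3K9me3 was at 57 and 51 regions (4.4% ± 0.345), and at 42 (3.42%) in both, against 16.9% of windows. The experiments gave the same order for every mark, with Exp1 alone and Exp2 alone on the same side of the windows. Exp1 held more H3K4me1 at microRNA genes than Exp2, and 91.2% of the regions of Exp2 were also marked in Exp1. The Exp1 list of H3K4me1 was larger over the whole genome, with islands over 251 Mb against 143 Mb in Exp2. It reached 13.1% of windows, against 8.03% in Exp2. The microRNA share was 2.73 times that of windows in Exp1 and 3.45 times in Exp2. This bears on each H3K4me1 mark given below for Exp1 alone. No test between these groups was run, since 2 experiments against 2 allow no p below 0.33 in an exact permutation test. Islands of the repressive marks were called on coarser grids, of 5000 bp for H3K27me3 and 3000 bp for H3K9me3 against 200 bp for the H3K4 marks. A list of islands also does not tell a mark in all cells from a mark in a share of them.

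Over all genes of each class, the H3K4me3 share was similar in the 3 classes, while H3K27me3 and H3K9me3 were least frequent inside protein-coding genes. Away from protein-coding gene ends, by over 5 kb, the H3K4me3 shares differed. They were 4.17% inside protein-coding genes, 20.2% inside lncRNA genes and 7.43% between genes. The shares over all genes of each class follow. Inside protein-coding genes, H3K4me3 lay at 136 regions (16.5%, windows 4.95%), H3K4me1 at 229 (27.8%, windows 12.9%), H3K27me3 at 64 (7.76%, windows 9.07%) and H3K9me3 at 5 (0.606%, windows 6.35%). In Exp1 and Exp2 taken singly, H3K9me3 lay at 1.7% and 1.45% of them. Inside lncRNA genes, H3K4me3 lay at 24 (19.8%, windows 2.69%), H3K4me1 at 23 (19%, windows 5.65%), H3K27me3 at 20 (16.5%, windows 16.9%) and H3K9me3 at 10 (8.26%, windows 11.7%). Between genes, H3K4me3 lay at 52 (18.4%, windows 1.52%), H3K4me1 at 58 (20.6%, windows 2.76%), H3K27me3 at 50 (17.7%, windows 24.2%) and H3K9me3 at 27 (9.57%, windows 25%). Thus the H3K4me3 share was 12.1 times that of windows between genes, 7.37 times in lncRNA genes and 3.33 times in protein-coding genes. The H3K27me3 share inside lncRNA genes was near its background in both experiments together. In Exp1 and Exp2 separately, H3K27me3 lay at 8.97% and 11% of the regions inside protein-coding genes, against 13.9% and 11.2% of windows, so its shortfall there was almost absent in Exp2.

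**Figure D1:**
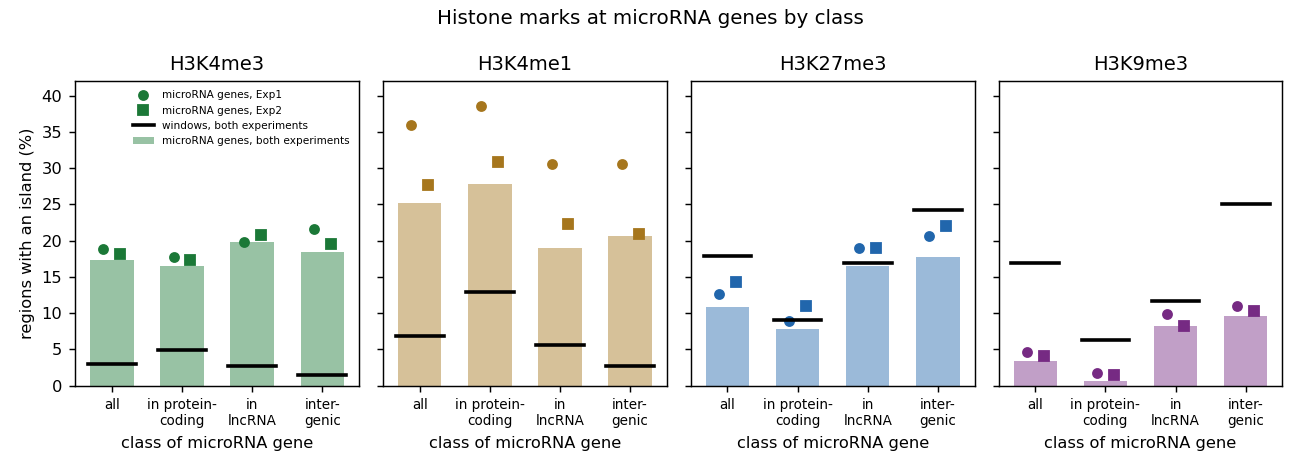
Share of microRNA gene regions overlapped by an island of each mark (y axis, %), for all 1228 genes and by class. Bars show both experiments, circles Exp1, squares Exp2 and black lines windows of the same width in both experiments. Bars stand above the lines for H3K4me3 and H3K4me1 in all classes and below them for H3K9me3. For H3K27me3 in lncRNA genes bar and line are at 16.5% and 16.9%.

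Combining the marks, most microRNA genes had neither H3K4me3 nor H3K27me3. H3K4me3 without H3K27me3 lay at 178 genes (14.5%, windows 2.53%), of which 144 also had H3K4me1. H3K27me3 without H3K4me3 lay at 100 genes (8.14%, windows 17.5%), and both marks lay at 34 genes in 27 loci (2.77%, windows 0.391%). The remaining 916 genes had neither. No mark was found in both experiments at 774 genes (63%, against 70% of windows), and 612 genes had no island of any mark in either experiment. The combined state was the same in Exp1 and Exp2 for 1137 of the 1228 genes. H3K9me3 coincided with H3K27me3 at 22 of its 42 genes. Hairpins with H3K4me3 alone or with both marks had median GC contents of 57.8% and 58.3%, and those with H3K27me3 alone or neither 50.7% and 50.5%.

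Where islands were present, those of the repressive marks wholly covered the region more often than those of H3K4me3 and H3K4me1. The repressive marks were called on grids of 5000 and 3000 bp, wider than each region, and the H3K4 marks on 200 bp. Whole coverage therefore depends on the calling and cannot be compared between marks. Of the 212 H3K4me3 regions, 69 were wholly covered in both experiments, with median coverage of 93.5% and 88.1% in Exp1 and Exp2. Of the 310 H3K4me1 regions, 114 were wholly covered in both, with medians of 100% and 90.7%. Of the 134 H3K27me3 regions, 126 were wholly covered, and of the 42 H3K9me3 regions 39. The median H3K4me3 island at a marked microRNA gene was 4.1 kb wide in Exp1 and 3.4 kb in Exp2. Most genes lay outside islands, and the median distance from the hairpin to the nearest H3K4me3 island was 20.1 kb in Exp1 and 18.4 kb in Exp2.

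The photoreceptor cluster, Mir183, Mir96 and Mir182, was covered by H3K4me3 and H3K4me1 and free of both repressive marks. The 3 genes lie on chromosome 6 (30165918 to 30169737, minus strand) within the lncRNA gene Mirc35hg, in the sense direction. H3K4me3 covered 100% of the Mir183 and Mir96 regions in both experiments, and 100% and 86.4% of the Mir182 region in Exp1 and Exp2. The 3 genes shared 1 H3K4me3 island, 20.8 kb wide in Exp1 and 17.2 kb in Exp2, and 1 H3K4me1 island of 65.4 and 31.2 kb, which covered all 3 regions wholly. The nearest H3K27me3 island was 416 kb from Mir182. Ranked by the smaller width of the 2 experiments, this H3K4me1 island was the fourth widest at any microRNA locus. Over the whole H3K4me3 lists, the median island was 3.2 kb wide in Exp1 and 2.4 kb in Exp2. Photoreceptor genes were marked in the same libraries. H3K4me3 lay at an end of 13 of 15 rod markers, without Nr2e3 and Sag, and of 10 of 10 cone markers, in both experiments, against 58.6% of all protein-coding genes. It also lay at 9 of 10 Müller glia markers, without the water channel gene Aqp4. The share of photoreceptors among the cells is not known, and their part in the marks at this cluster was not tested.

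The promoter of Mirc35hg is shown because the H3K4me3 island covered it wholly in both experiments. It runs from 250 bases before to 50 after the annotated start (RefSeq, GRCm38.p6, chr6:30174076-30174375, minus strand), with each CG in capitals.
Mirc35hg: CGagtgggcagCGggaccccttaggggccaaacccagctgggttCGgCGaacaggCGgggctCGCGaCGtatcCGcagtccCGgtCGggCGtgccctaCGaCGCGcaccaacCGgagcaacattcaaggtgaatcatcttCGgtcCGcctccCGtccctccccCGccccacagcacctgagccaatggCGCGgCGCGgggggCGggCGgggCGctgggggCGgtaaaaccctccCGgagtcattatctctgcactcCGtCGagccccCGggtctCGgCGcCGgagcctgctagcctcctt
It holds 35 CG dinucleotides, which read the same on both strands. CG was found in 94.6% of the 32851 promoters of this length in the table, with a median of 7 each. The median was 22 in promoters with H3K4me3 in both experiments and 3 in the others.

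All 3 miR-124 genes lay wholly within H3K4me3 islands and had no repressive mark. miR-124 promotes neuronal differentiation by lowering non-neuronal transcripts. The islands at Mir124a-1 (chromosome 14, 64590657 to 64590741, in the lncRNA gene Mir124a-1hg) were 24 kb wide in both experiments. Those at Mir124a-2 (chromosome 3, 17795662 to 17795770, in Mir124-2hg) spanned 20.2 and 18.8 kb. At Mir124a-3 (chromosome 2, 180894040 to 180894107, between genes) they were 5.6 and 6 kb. The first pair were the third and the fifth widest H3K4me3 islands at any microRNA locus, taking 1 gene per locus. H3K4me1 covered 100% of the Mir124a-3 region in both experiments and 100% and 64.5% of the Mir124a-1 region. At Mir124a-2 it covered 25.6% in Exp1 and 0% in Exp2.

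The 3 miR-9 genes, which give the same mature strand, fell into different states. All carried H3K4me3 over 93.4% to 100% of their regions in both experiments. Mir9-2 (chromosome 13, 83738814 to 83738885, in the lncRNA gene C130071C03Rik) had H3K4me3 islands of 33.6 and 27.8 kb in Exp1 and Exp2 and no H3K27me3, whose nearest island was 294 kb away in Exp1 and 474 kb in Exp2. Mir9-1 (chromosome 3, 88215598 to 88215686, in Gm3764) had H3K4me3 islands of 6.2 and 3.4 kb inside H3K27me3 islands that were 80 kb wide in both experiments. Mir9-3 (chromosome 7, 79505264 to 79505353, in Mir9-3hg) had H3K4me3 islands of 2.2 and 2 kb inside H3K27me3 islands of 165 and 180 kb. So the gene with the widest H3K4me3 island had no H3K27me3, and the 2 with narrower islands had both marks. H3K4me1 was at Mir9-1 (100% and 76.7% covered) and Mir9-3 (100% and 93.4%) in both experiments, and at Mir9-2 in Exp1 alone (61.4% and 0%). When only the islands with the smaller deposited p-values of each list were used, H3K4me3 lay at 1 of the 3 genes.

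The annotated start of Mir9-3hg, shown as the counterpart of Mirc35hg with both marks, was wholly covered by H3K4me3, H3K4me1 and H3K27me3 in both experiments (chr7:79499776-79500075, plus strand, each CG in capitals).
Mir9-3hg: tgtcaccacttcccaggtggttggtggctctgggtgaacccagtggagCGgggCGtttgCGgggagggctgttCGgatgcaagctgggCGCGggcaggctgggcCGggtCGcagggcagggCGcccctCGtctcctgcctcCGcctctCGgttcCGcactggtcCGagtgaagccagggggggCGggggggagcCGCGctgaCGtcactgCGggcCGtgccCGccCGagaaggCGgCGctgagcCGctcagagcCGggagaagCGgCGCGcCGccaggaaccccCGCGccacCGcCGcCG
It also holds 35 CG. The start of Gm3764 upstream of Mir9-1 was covered by the same 3 marks and holds 9, and the first start of C130071C03Rik, with H3K4me3 and H3K4me1, holds 12.

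The miR-204 and miR-211 genes had no mark in both experiments at the hairpin. Mir204 (chromosome 19, 22750605 to 22750672) lies in Trpm3 and Mir211 (chromosome 7, 64205806 to 64205911) in Trpm1, which encode ion channels. At Mir204, H3K4me1 covered 71.2% of the region in Exp1 and 0% in Exp2, where the nearest H3K4me1 island lay 1.33 kb away. At Mir211 all 8 lists were empty. The nearest H3K4me3 islands were upstream, 51.4 and 52 kb from Mir204 and 43.2 and 46.4 kb from Mir211. They need not belong to the same transcript. The host promoters were marked apart from the hairpins. H3K4me3 covered 100% and 94.7% of the first Trpm1 start, and 100% of a later Trpm3 start in both experiments, while the first Trpm3 start had H3K4me1 alone. Of 10 pigment epithelium markers, 5 had H3K4me3 at an end in both experiments, without Rpe65, Lrat, Ttr, Tyr and Tyrp1, near the 58.6% of all protein-coding genes.

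The let-7 family had H3K4me3 at 2 of 12 genes and H3K27me3 or H3K9me3 at 0. Mirlet7i (chromosome 10, 122985640 to 122985724, between genes) was wholly covered by H3K4me3 islands of 5.6 and 3.8 kb. Mirlet7e (chromosome 17, 17830352 to 17830444, in Spaca6) was covered over 31% in Exp1 and 59.7% in Exp2 by the edge of islands of 4.2 and 5.2 kb. H3K4me1 lay at 8 genes in Exp1 and 4 in Exp2, and the 4 of Exp2 were all among the 8. They were Mirlet7b and Mirlet7c-2, neighbours in the lncRNA gene Lncppara, Mirlet7g in Wdr82 and, at 13% coverage in Exp2, Mirlet7a-1. At Mirlet7c-2 H3K4me1 covered 100% and 85.8% of the region, at Mirlet7b 71.1% and 61.6%, and at Mirlet7g 74.8% and 55.6%. In Exp1 alone it also lay at Mirlet7d, Mirlet7f-1, Mirlet7e and Mirlet7i. Mirlet7a-2, Mirlet7c-1, Mirlet7f-2 and Mir98 had no island in any list.

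For several let-7 genes without H3K4me3 at the hairpin, an island lay a few kilobases upstream. The distance was 5.73 and 5.53 kb for Mirlet7a-1, the first of a cluster with Mirlet7f-1 and Mirlet7d on chromosome 13. It was 4.44 kb in both experiments for Mirlet7g, and 3.86 and 4.26 kb for Mirlet7c-1. For Mirlet7b and Mirlet7c-2 it was 24.3 and 25.9 kb and 23.6 and 25.2 kb. The promoter annotated for Lncppara, upstream of both genes, is shown as a start with H3K4me1 and no H3K4me3 in either experiment (chr15:85703523-85703822, plus strand, each CG in capitals).
Lncppara: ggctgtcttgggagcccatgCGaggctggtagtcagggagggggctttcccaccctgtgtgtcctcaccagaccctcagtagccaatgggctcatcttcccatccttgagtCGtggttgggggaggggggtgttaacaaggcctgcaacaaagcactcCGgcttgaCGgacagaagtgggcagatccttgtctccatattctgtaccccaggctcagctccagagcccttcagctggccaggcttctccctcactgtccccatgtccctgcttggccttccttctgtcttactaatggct
It holds 4 CG, against 35 in the promoter of Mirc35hg.

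**Figure D2:**
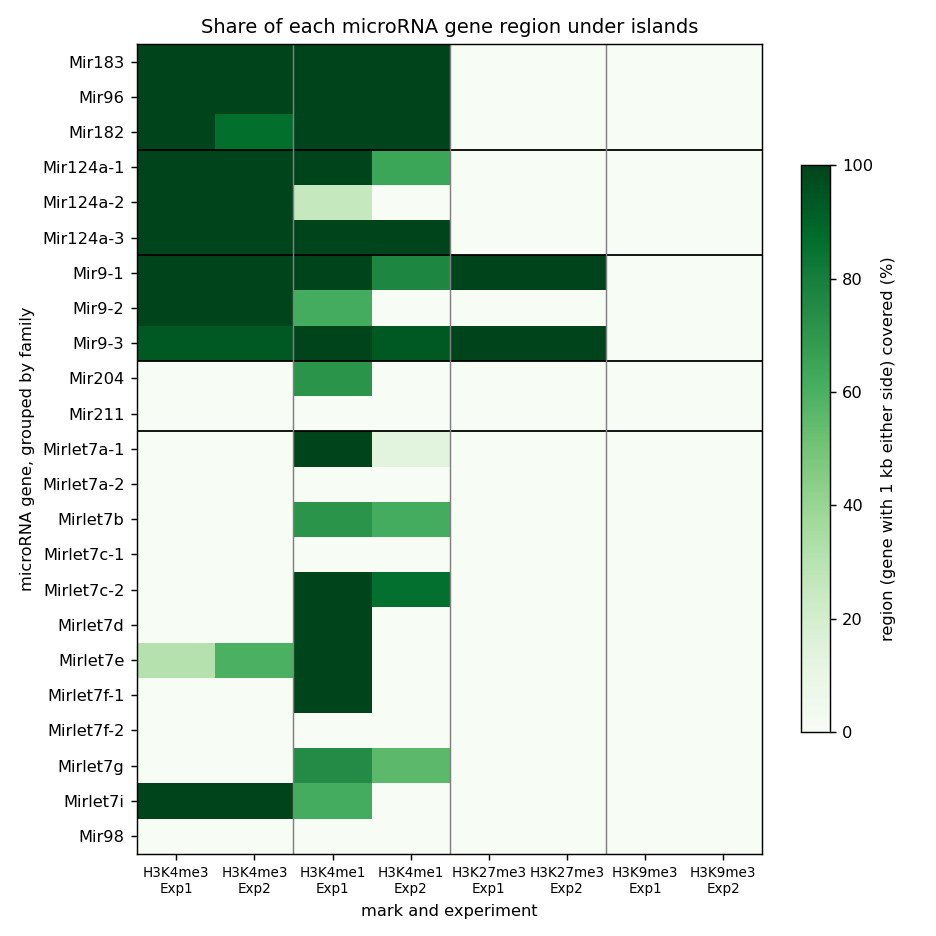
Share of each region (gene with 1 kb either side) covered by islands, in the 23 genes of the retinal families (rows) and 8 lists (columns), from 0% (white) to 100% (dark green). The rows run through the photoreceptor cluster, miR-124, miR-9, miR-204 with miR-211, and let-7. H3K4me3 covers at least 86.4% of the 9 regions of the first 3 families, and H3K27me3 appears only at Mir9-1 and Mir9-3. In the let-7 rows H3K4me1 is denser in Exp1 than in Exp2.

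The lists of broadly expressed or glia-enriched microRNAs differed among themselves, against an H3K4me3 share of 17.3% over all microRNA genes. In the miR-125, miR-99 and miR-100 list it was at 3 of 6 genes. Mir125b-1 was wholly covered in both experiments, Mir99b over 39.3% and 68.3%, and Mir125a over 9.14% and 38.2%. Mir99b and Mir125a are the same site as Mirlet7e in Spaca6, at the edge of the same islands of 4.2 and 5.2 kb. Mir125b-2 had it in Exp2 alone, and Mir99a and Mir100 in neither. The miR-23, miR-24 and miR-27 genes carried H3K4me1 without H3K4me3 at 3 of 6, the cluster of Mir23a, Mir27a and Mir24-2 on chromosome 8, where H3K4me3 lay 4.12 and 3.92 kb upstream of Mir23a. The other cluster, Mir23b, Mir27b and Mir24-1 in Aopep, had no mark. Of the miR-29 genes (4) and miR-30 genes (6), 0 had a mark in both experiments, although H3K4me1 lay at 2 and 4 of them in Exp1. Mir26b had H3K4me3 over 100% and 42.7% of its region, and H3K4me1 over all of it. Mir26a-1 had H3K4me1 (13.9% and 51.9%), and Mir26a-2 neither in both experiments.

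Among neuronal microRNA genes other than miR-124 and miR-9, 3 of 15 had both H3K4me3 and H3K27me3, against 2.77% of all microRNA genes. H3K4me3 lay at 5 of 15, H3K4me1 at 7 and H3K27me3 at 4. Over all microRNA genes the shares were 17.3%, 25.2% and 10.9%. Both H3K4me3 and H3K27me3 lay at Mir129-2 and at the neighbours Mir132 and Mir212, which are induced by neuronal activity. Mir132 and Mir212 lay on the same H3K27me3 island in each experiment. Its deposited p-values were 0.373 in Exp1 and 0.0685 in Exp2, far weaker than at Mir129-2 (5.75e-22 and 1.63e-32). H3K4me3 without H3K27me3 lay at Mir137 (77.2% and 73.8% covered) and Mir7b (66.9% and 76.4%), although Mir7b had H3K27me3 in Exp2. Mir218-2 had H3K27me3 alone, in islands of 555 and 690 kb. Mir7-1, Mir7-2, Mir128-1 and Mir128-2 had neither, and H3K4me1 covered 92.1% and 72.8% of the Mir128-2 region. The oligodendrocyte list carried H3K4me1 at 4 of 4 genes, Mir219a-1, Mir219a-2, Mir219b and Mir338, against 25.2% of all microRNA genes. These are 3 loci, since Mir219a-2 and Mir219b overlap on opposite strands and share their islands. H3K4me3 and H3K27me3 lay at Mir219a-1 alone, with p-values of 0.181 and 1.83e-25 for its H3K27me3 islands. H3K4me3 lay at an end of 3 of 10 oligodendrocyte markers in both experiments, against 58.6% of all protein-coding genes.

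MicroRNA genes of other lineages carried H3K27me3 throughout the Hox list and at part of the pluripotency and muscle lists. H3K4 methylation lay at part of the vascular and blood lists. Over all microRNA genes, H3K27me3 lay at 10.9% (windows 17.9%) and H3K4me1 at 25.2% (windows 6.86%). Of the pluripotency list, the 7 genes from Mir290a to Mir295 on chromosome 7, which are abundant in embryonic stem cells, lay wholly within 1 H3K27me3 island of 230 kb in both experiments. The 5 genes of the Mir302 and Mir367 cluster in Larp7 had no mark. Of 10 muscle genes, Mir1a-1 and Mir133a-2, in Mir1a-1hg on chromosome 2, lay in H3K27me3 islands of 130 and 150 kb. Mir1a-2, Mir1b, Mir133a-1 and Mir133b had no mark. All 6 microRNA genes of the Hox clusters lay wholly within H3K27me3 islands, which were 225 to 645 kb wide. They were Mir10a, Mir10b, Mir196a-1, Mir196a-2, Mir196b and Mir615. H3K9me3 covered the same 6 genes in Exp1 and 0 of them in Exp2. The 4 liver and 6 epithelial microRNA genes had no mark in both experiments. Of the vascular list, H3K4me1 was at 2 of 5, Mir143 and Mir145a, while Mir126a, Mir126b and Mir145b had none. The islands at Mir145a also reached the Mir143 region, over 19.6% in Exp1 and only 0.242% in Exp2.

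Among 9 blood and microglia genes, H3K4me3 was at 3, against 17.3% of all microRNA genes. Mir142, abundant in blood cells, and Mir142b, which overlaps it on the opposite strand, are the same site. They shared islands of 2.2 and 2.6 kb that covered 93.8% and 100% of the Mir142 region, 1.27 kb from the nearest gene end. Mir150 was covered over 30.1% and 59.1%, by islands of 8.2 kb in both experiments, 0.567 kb from the nearest gene end. Mir144, Mir451a, Mir155 and Mir146 had no mark. Of 10 microglia markers, 0 had H3K4me3 at an end in Exp1 and 3 in Exp2, and 0 in both. Of 10 endothelial markers, 2 had it in both, and of all protein-coding genes 58.6%. The part of these cells in the marks was not tested.

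The miR-17 to miR-92 cluster and its relatives, which promote proliferation, were marked at an edge and mostly in Exp1. On chromosome 14, H3K4me3 islands of 3.2 and 2.8 kb in Exp1 and Exp2 ended upstream of the first hairpin. They covered 25.4% and 6.24% of the Mir17 region, and in Exp1 alone 16.7% of that of Mir18, 9.65% of Mir19a and 2.09% of Mir20a. H3K4me1 lay at 7 of the 15 genes in Exp1 and at 0 in Exp2. The related genes on the X chromosome, from Mir106a to Mir363, had no mark.

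**Figure D3:**
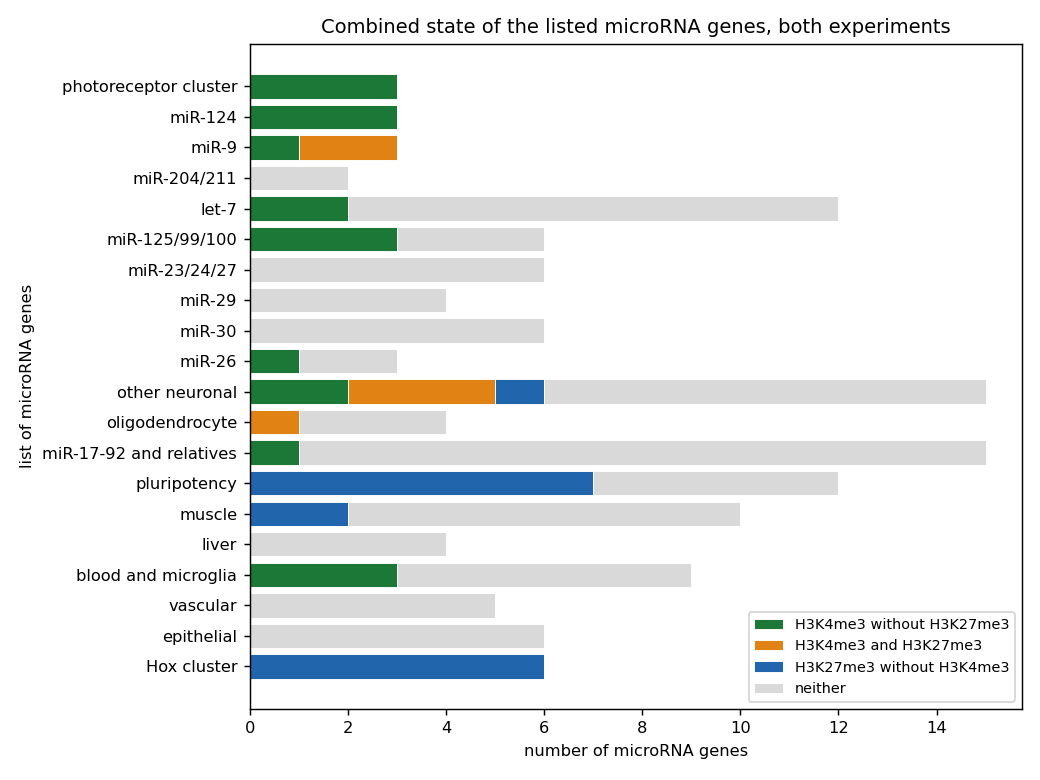
Number of microRNA genes (x axis) in each combined state in both experiments, for the 20 lists (y axis). Green is H3K4me3 without H3K27me3, orange both marks, blue H3K27me3 without H3K4me3 and grey neither. The photoreceptor, miR-124 and miR-9 bars hold no grey, the Hox bar is wholly blue and blue fills 7 of 12 genes in the pluripotency bar.

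At the 34 genes with both H3K4me3 and H3K27me3, the H3K27me3 islands were the wider ones by their medians, as in the whole lists. There the medians in Exp1 and Exp2 were 50 and 80 kb for H3K27me3, called on a coarser grid, and 3.2 and 2.4 kb for H3K4me3. The H3K4me3 islands had median widths of 3.7 and 3.4 kb in Exp1 and Exp2, and the H3K27me3 islands of 80 and 92.5 kb. The H3K4me3 medians were close to the 4.1 and 3.4 kb at all microRNA genes with H3K4me3, and the widest was 38.2 kb, at Mir101c. Of the 34 genes, 30 also had H3K4me1 and 5 H3K9me3, and 5 lay on an H3K27me3 island with a deposited p-value above 0.05 in at least 1 experiment. When only the islands with the smaller p-values of each list were used, both marks lay at 0.326% of the microRNA genes instead of 2.77%. Both marks lay at 8 genes in 4 loci inside lncRNA genes (6.61%, windows 0.496%). Between genes they lay at 12 in 9 loci (4.26%, windows 0.314%). Inside protein-coding genes they lay at 14 in 14 loci (1.7%, windows 0.483%). Of these genes, 3 are named with their hosts, chosen after their values were seen. Mir1897 lies in Sox2ot, the lncRNA gene around Sox2, Mir6402 in Elavl2, which encodes a neuronal RNA-binding protein, and Mir5126 in the Notch ligand gene Dner. The islands come from many cells, so the marks need not lie on the same chromosomes.

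Inside protein-coding genes, marks at the hairpin went with marks at the ends of the host. The same island can reach both, above all for the wide repressive marks. Median islands were 50 and 80 kb wide for H3K27me3 in Exp1 and Exp2, and 30 and 45 kb for H3K9me3. How often hairpin and host end shared an island was not counted. The 825 genes had 675 distinct hosts, of which 558 (82.7%) had H3K4me3 at an end in both experiments, against 58.6% of all 21887 protein-coding genes. H3K4me1 was at an end of 77.2% of hosts (all genes 54.6%), H3K27me3 at 12.9% (all genes 23.3%) and H3K9me3 at 1.78% (all genes 13.4%). Hosts were not matched for length or expression with other genes. H3K4me3 lay at 21.1% of the microRNA genes whose host had it at an end and at 4.04% of the others. H3K4me1 gave 38.5% and 5.26% by the same split. The shares of H3K27me3 were 36.4% and 0.606%, and those of H3K9me3 15% and 0.248%. These 4 splits count microRNA genes, so hosts with many of them weigh more, and no split by host was made. The 72 genes in Sfmbt2, which had no island, share that host. H3K27me3 lay at an end of 87 distinct hosts, while 165 microRNA genes had a host with it at an end. Of the 602 microRNA genes with H3K4me3 at a host end, 475 therefore had none at the hairpin. Of the 136 regions with H3K4me3, 58 reached a protein-coding gene end. H3K4me3 lay at 100 of 518 genes on the host's strand (19.3%) and at 13 of 82 on the opposite strand (15.9%). At the other 225, whose strand was not known, it lay at 23 (10.2%).

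H3K4me3 was less frequent at microRNA genes further from gene ends, and in each range more frequent than at windows. Within 1 kb of an end of a protein-coding or lncRNA gene, it lay at 94 of 217 genes (43.3%, windows 22.8%). From 1 to 5 kb it lay at 82 of 331 (24.8%, windows 9.16%), from 5 to 20 kb at 27 of 352 (7.67%, windows 1.3%), and beyond 20 kb at 9 of 328 (2.74%, windows 0.444%). H3K4me1 lay at 47% of genes within 1 kb and 6.71% beyond 20 kb (windows 25.9% and 2.84%). H3K27me3 was below windows in every range, with 16.6% against 19.2% within 1 kb and 7.62% against 17.3% beyond 20 kb. H3K9me3 was more frequent further away, at 0.461% within 1 kb and 8.54% beyond 20 kb, against 10.2% and 20.6% of windows. An end can be a start or a termination site, since the gene table gives no strand. Over the 809 microRNA genes more than 5 kb from any protein-coding gene end, H3K4me3 lay at 7.05% and H3K4me1 at 14.1%, against 0.838% and 4.64% of such windows.

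**Figure D4:**
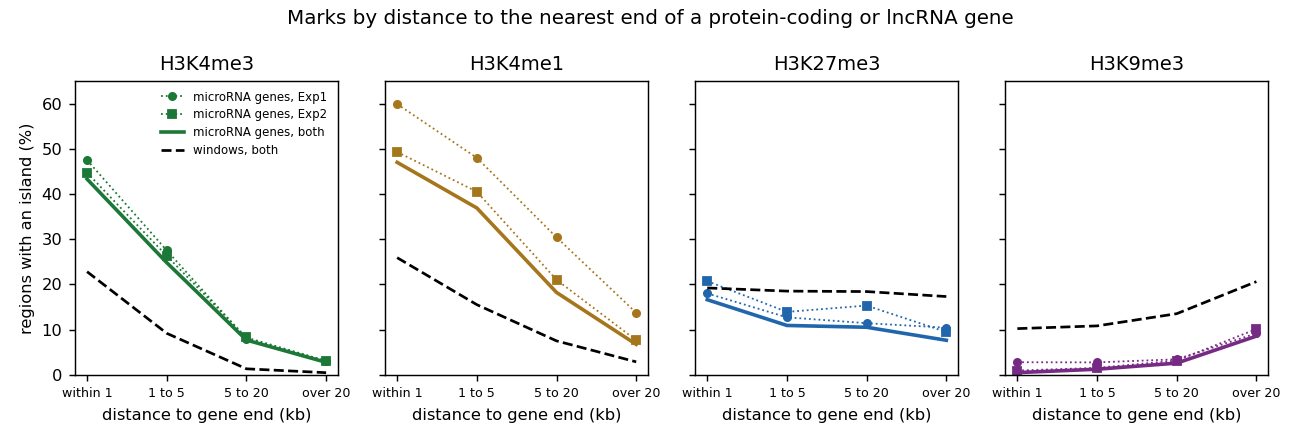
Share of regions with an island (y axis, %) by distance from the nearest end of a protein-coding or lncRNA gene (x axis, 4 ranges in kb). Solid coloured lines show microRNA genes in both experiments, dotted lines with circles Exp1 and with squares Exp2, and dashed black lines windows. The H3K4me3 line falls from 43.3% to 2.74% and stays above the windows, while the H3K9me3 line stays below them.

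The 9 genes with H3K4me3 over 20 kb from any gene end, singled out after their values were seen, were of several kinds. Mir137 lay 64.4 kb from the nearest end, with islands of 1.6 and 2 kb and H3K4me1. Mir129-2 and Mir129b shared islands of 7.8 and 7.4 kb, 23.6 kb or more from an end, within H3K27me3. Mir1893 in Epc1 and Gm38671 in Mcf2l had H3K4me3 with H3K4me1, and Mir1904 in Pde4d had it without. Mir6402 was touched at its margin, over 15.2% and 5.62% of the region. Mir8099-2 and Mir101c carried H3K9me3 as well. Mir101c had the widest H3K4me3 island at any microRNA gene, 38.2 kb in both experiments, together with H3K27me3 islands of 330 and 325 kb and H3K9me3 islands of 324 kb in both. It lies at 3038669 to 3038743 on chromosome 9, beside the unsequenced first 3 Mb of the chromosome, and its H3K4me3 islands covered 44.9% of the region in both experiments.

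Other wide islands lay at microRNAs inside genes or in repressed domains. Mir6546 in Fcgr3 on chromosome 1 had all 4 marks, with H3K4me3 islands of 23 and 22.6 kb and H3K9me3 islands of 27 kb in both experiments. The widest H3K4me1 islands were at Mir7687 in Gse1 (78.6 and 89.2 kb), Mir6374 in Tet3 (69.4 and 48.4 kb), Mir1191b in Nfic (54.4 and 46.4 kb), the photoreceptor cluster and Mir1953 (27.6 and 27 kb). Each of these 5 was wholly covered by H3K4me1 in both experiments. The widest H3K27me3 islands were at Mir5620 in Clcn4 (2370 and 2430 kb) and Mir297-1 (2500 and 2140 kb), both on chromosome 7. Those at Mir6388, Mir7094-1 and Mir7094-2 on chromosome 12 were 1 shared domain of 1945 and 2905 kb. The same 5 genes had the widest H3K9me3 islands, from 2262 to 2802 kb. Mir5620 alone of them also had H3K4me3, in islands of 4 and 4.2 kb.

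Of the largest clusters of microRNA genes, those in Sfmbt2 and around Mirg had no mark in both experiments, and the others had a mark at 4 genes each. Large clusters weigh on the counts over genes. With loci in place of genes, H3K4me3 lay at 19.9% instead of 17.3%. The 72 genes inside Sfmbt2 on chromosome 2 (10466663 to 10518279) had no island of any mark, and the nearest H3K4me3 island was 91.1 kb away in Exp1 and 90.7 kb in Exp2. The 39 genes from Mir379 to Mir3072 in and around Mirg on chromosome 12 (109709060 to 109747960), which belong to the imprinted domain of Meg3, had no mark in both experiments. The 16 genes at Meg3 and Rtl1 in the same domain (109563692 to 109595397) had H3K4me1 at 4, Mir434, Mir432, Mir3071 and Mir136, which shared islands of 2.4 and 2.2 kb. On the X chromosome, 19 genes from Mir743 to Mir465 (66776757 to 66839125) had H3K9me3 at 4, Mir743, Mir743b, Mir742 and Mir883a, in islands of 87 and 102 kb.

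Of the 10 genes with H3K9me3 inside lncRNA genes, 7 belonged to the Mir344 family. Of 13 Mir344 genes on chromosome 7, singled out after their values were seen, 10 had H3K9me3 in both experiments. Of these, 9 from Mir344d-1 to Mir344, shared 1 island, 1905 kb wide in Exp1 and 849 kb wide in Exp2, and Mir344i lay in another of 123 and 126 kb. Mir344-2 had no mark, and Mir344g had H3K4me3 over 53.7% and 92.3% of its region at a gene end. On the X chromosome, H3K4me3 lay at 3 of 92 microRNA genes (3.26%, windows 1.45%), H3K27me3 at 4 (4.35%, windows 28.6%) and H3K9me3 at 8 (8.7%, windows 37.4%). On the autosomes the shares were 18.4% (windows 3.13%), 11.4% (windows 17.8%) and 2.99% (windows 16.1%).

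Seed groups were described by the same counts. The let-7 seed GAGGUAG was found in 13 genes at 9 loci, with H3K4me3 at 2, H3K4me1 at 4 and H3K27me3 at 1, which was Mir7k. The seed AGCAGCA of miR-15, miR-16 and miR-195 was found in 11 genes at 8 loci, with H3K4me3 at 1, H3K4me1 at 2, H3K27me3 at 4 and H3K9me3 at 2. The seed AAAGUGC of miR-17 and its relatives was found in 7 genes, with H3K4me3 at 1, which was Mir17. The seed ACAUUCA of miR-181 was found in 6 genes at 3 loci, with H3K4me1 at 2 and H3K4me3, H3K27me3 and H3K9me3 at 0, so these 6 shared the state with neither H3K4me3 nor H3K27me3. For comparison, over all microRNA genes H3K4me3 lay at 17.3%, H3K4me1 at 25.2%, H3K27me3 at 10.9% and H3K9me3 at 3.42%. In windows the shares were 2.92%, 6.86%, 17.9% and 16.9%.

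The number in a microRNA symbol follows the order in which the genes were named, and over all genes the higher numbers carried H3K4me3 more often. The counts are over genes, so large clusters weigh on them. The cluster in Sfmbt2, from Mir466m to Mir669h, alone holds 72 genes, with H3K4me3 at 0. The split by number was not repeated with loci in place of genes. Symbols numbered below 1000, let-7 included, had H3K4me3 at 74 of 526 genes (14.1%), with 80 in Exp1 and 76 in Exp2. Those numbered 1000 or above had it at 124 of 654 (19%), with 137 and 133. Within 1 kb of a gene end the shares were 23 of 96 (24%) and 68 of 115 (59.1%). The order was the opposite from 1 to 5 kb, with 33 of 108 (30.6%) and 42 of 203 (20.7%), and from 5 to 20 kb, with 14 of 124 (11.3%) and 10 of 213 (4.69%). Beyond 20 kb the shares were 4 of 198 (2.02%) and 4 of 123 (3.25%). The 48 genes with no number in the symbol had H3K4me3 at 14 (29.2%). Of the genes numbered 1000 or above, 512 lie inside protein-coding genes, against 282 of the others. Among other short RNA genes treated in the same way, H3K4me3 lay at 15.4% of 1340 snoRNA genes and 51.7% of 408 tRNA genes, and H3K9me3 at 25.4% and 10.8%. Differences between these gene types were not tested.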

How the data were processed

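Chromatin from 25000 sorted cells per immunoprecipitation was sequenced as single-end 50 bp reads from 500 pg of DNA, per the labels' protocols. The submitters' processing notes name FastQC, BWA 0.7.5a, SAMtools 1.3.1, bedtools 2.17, SICER and mm10. Of the 10 libraries, 8 island lists were used, and the 2 inputs were not analysed here. The deposited lists give each island's position and a p-value, and whether it was adjusted is not given in the sources used here. Island edges fall on fixed grids, and gaps shorter than 800 bp (H3K4 marks), 24000 bp (H3K9me3) or 35000 bp (H3K27me3) do not occur. Without read counts the depth, and so the precision of each island, is unknown.

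MicroRNA genes of chromosomes 1 to 19, X and Y were taken from the RefSeq gene table of GRCm38.p6, the assembly of mm10, and widened by 1 kb. Classes were assigned in the order protein-coding, lncRNA, intergenic. Background windows of 2080 bp were laid end to end, leaving out the first 3 Mb of each chromosome, and classed by their central 80 bp. Other assembly gaps were not removed. A mark was called where an island in both experiments overlapped by at least 1 bp. Distances were taken to either end of a gene, since the table gives no strand. The overlap code was tested on simulated data. Python 3.11.15, numpy 2.4.6, pandas 2.3.3 and matplotlib 3.10.9 were used.

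Members and lists were chosen with earlier results of these data known. Named were all microRNAs of the photoreceptor, miR-124, miR-9, miR-204 with miR-211 and let-7 lists, up to 4 members each of the commonest and of the other states of further lists, the 5 widest islands per mark, and loci of 10 or more genes. Genes named beyond that rule were chosen after their values were seen. The same-numbered libraries share an experiment, per the labels, and no test between groups was made. Alternatives were another flank, a coverage minimum, islands of lower p, a mark in either experiment, single experiments, loci in place of genes, and genes away from protein-coding gene ends.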

Additional observations from a re-analysis of the deposited data

How the results depend on the processing

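Of 184 recomputed shares, 157 stayed within 1.5 times the reported value and 27 moved, and of 160 counts in the retinal families 151 stayed and 9 moved. For microRNA genes over 5 kb from protein-coding gene ends, H3K4me3 lay at 7.05% (protein-coding hosts 4.17%, lncRNA hosts 20.2%, intergenic 7.43%, windows 0.838%). H3K4me1 lay at 14.1% (protein-coding hosts 15.9%, intergenic 6.93%, windows 4.64%). H3K27me3 inside protein-coding genes lay at 4.77% and H3K9me3 there at 0.398%. H3K4me3 without H3K27me3 lay at 5.32% of all microRNA genes at this distance, and both marks at 1.73%. With the islands of lower p-values alone, H3K4me3 lay at 11.4% (lncRNA hosts 11.6%, intergenic 11.3%, windows 1.72%), H3K4me1 at 16.8% (protein-coding hosts 17.9%, intergenic 13.5%, windows 4.41%), H3K27me3 inside lncRNA genes at 9.92%, and both marks at 0.326%. With a mark in either experiment, H3K4me1 lay at 38.4% (lncRNA hosts 33.9%), H3K27me3 inside protein-coding genes at 12.2%, H3K9me3 at 5.37% (protein-coding hosts 2.55%) and both marks at 4.48%. From a single experiment, H3K4me1 inside lncRNA genes lay at 22.3% to 30.6% and H3K9me3 inside protein-coding genes at 1.45% to 1.7%. Among the families, H3K4me1 lay at 8 let-7 genes in Exp1 or in either experiment and at 7 with 2.5 kb flanks. It lay at 1 of the miR-204 and miR-211 genes under the same settings. H3K4me3 lay at 1 let-7 gene, not 2, when 50% coverage or distance from protein-coding ends was required, and at 1 miR-9 gene with lower p-values. Combining the marks within each experiment first (the replicate block) gave H3K4me3 without H3K27me3 at 13.8% and both marks at 2.77%.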
